A study of Homo sapiens with 6 samples.

Results

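The genes described here were 9 interleukins, interleukin subunits and receptor chains, out of 16390 genes with a count: IL32, IL7 and IL15, which encode whole ligands, IL23A and EBI3, which encode ligand subunits, and IL12RB1, IL2RG, IL15RA and IL4R, which encode receptor chains. They were chosen by name, with earlier results of these libraries known, so their RC48 against Control values are a description and carry no test. All cells were SW780, an established human bladder cancer cell line that the study used as a luminal-type model, and every library came from this 1 line. The 3 RC48 libraries came from SW780 described in the methods as stable and exposed to RC48 at 25 µg/ml, and the 3 Control libraries came from their matching controls. RC48 (disitamab vedotin) is an antibody against the receptor ERBB2 that carries the microtubule poison MMAE. The labels enter RC48 and Control as genotypes, the exposure time is not given in the sources used here, and nothing says whether replicates were separate cultures, so the p-values below measure the spread between these libraries, which may be technical.

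Interleukins are secreted proteins by which immune and epithelial cells signal to each other, and their receptors mostly pass the signal on through JAK kinases and STAT transcription factors. IL-2, IL-4, IL-7, IL-9, IL-15 and IL-21 share the common gamma chain (IL2RG), and each of their receptors adds chains of its own. IL-12, IL-23, IL-27 and IL-35 are heterodimers, in which IL23A, EBI3 and a few other subunits are combined in pairs. IL-32 stands apart from both families and is known as a cytokine that brings about TNF and chemokine production.

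Promoter sequences were placed beside the values to show the DNA just before the start of some genes that stood higher with RC48. IL12RB1 and IL4R also stood higher, and their sequences are not printed. RefSeq (GRCh38.p14) gave the 250 bases before a transcription start for 7 of the 9 genes, all but IL7 and IL15. The consensus of the transcription factor NF-κB was searched on both strands, where matches on opposite strands can overlap, and capitals mark the bases of a match. IL32 is shown for its upstream start site, at chr16:3065153-3065402 on the plus strand, IL23A at chr12:56338634-56338883 on the plus strand, EBI3 at chr19:4229273-4229522 on the plus strand, and IL2RG at chrX:71111578-71111827 on the minus strand, all written 5′ to 3′ along the gene.
IL32: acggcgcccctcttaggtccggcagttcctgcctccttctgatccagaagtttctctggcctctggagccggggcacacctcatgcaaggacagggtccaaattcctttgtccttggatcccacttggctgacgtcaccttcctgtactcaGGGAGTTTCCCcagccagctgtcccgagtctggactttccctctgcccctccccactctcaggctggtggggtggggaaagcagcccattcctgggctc
IL23A: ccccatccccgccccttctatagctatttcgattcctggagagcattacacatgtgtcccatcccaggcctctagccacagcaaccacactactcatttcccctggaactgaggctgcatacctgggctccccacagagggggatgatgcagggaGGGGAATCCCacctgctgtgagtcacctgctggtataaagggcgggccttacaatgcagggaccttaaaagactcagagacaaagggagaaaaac
EBI3: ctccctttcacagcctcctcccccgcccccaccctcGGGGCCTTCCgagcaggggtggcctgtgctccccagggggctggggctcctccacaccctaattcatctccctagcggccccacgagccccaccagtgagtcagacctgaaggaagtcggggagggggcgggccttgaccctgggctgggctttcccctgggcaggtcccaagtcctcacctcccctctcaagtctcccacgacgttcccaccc
IL2RG: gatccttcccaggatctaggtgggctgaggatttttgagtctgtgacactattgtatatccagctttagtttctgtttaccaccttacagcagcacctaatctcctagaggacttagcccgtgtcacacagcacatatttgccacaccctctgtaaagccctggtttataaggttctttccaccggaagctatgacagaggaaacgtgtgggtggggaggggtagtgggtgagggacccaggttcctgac
The match in IL32 consisted of 2 overlapping occurrences, 1 on each strand, beginning 99 and 98 bases before the start, and the second of its 2 start sites held none. The IL23A match began 95 bases and the EBI3 match 214 bases before the start. A match to the NF-κB consensus was present in at least 1 promoter window of 5 of the 7 genes, namely IL32, IL23A, EBI3, IL15RA and IL4R, and IL2RG and IL12RB1 held none. Among all genes with a promoter sequence, 11.8% of 27305 held it. The windows with a match had a GC content from 54.8% (IL23A) to 80.8% (IL4R). The share of all genes was not matched for GC content or for the number of start sites. The genes were picked with their values in view, so nothing is read from the count of matches. The match in IL15RA lay in the second of 4 start sites. The core of the interferon-stimulated response element, GAAA repeated after a gap of 2 bases, was in none of the 7 genes, against 3.71% of all genes. The core of the STAT-binding GAS element, TTC and GAA with 3 bases between them, was in IL15RA alone, against 8.09% of all genes. These matches are letters in a window, and no binding was measured.

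The libraries held between 16453233 and 17988030 estimated counts each. CPM below are estimated counts scaled to a common library size, here the size after TMM normalization, which balances libraries by the bulk of their genes. In RC48 replicates 1 and 3, genes with more G and C bases stood higher relative to the Control mean (Spearman's rho across 13000 genes 0.736 and 0.566, against −0.01 for RC48 replicate 2, where genes are not independent replicates). Fold changes corrected for GC content are therefore given beside those of the 7 genes that could be tested and of the pathway genes named. Luminal urothelial markers summed to 880.2 to 896.0 CPM in the Control libraries and 783.9 to 973.1 CPM in the RC48 libraries, basal markers to 333.3 to 352.0 CPM and 309.8 to 343.0 CPM, and general epithelial markers to 11248 to 13017 CPM and 13084 to 17315 CPM. Of the epithelial markers KRT7, the most abundant, was higher in every RC48 library (log2 fold change 0.53, and 0.22 with GC correction). EPCAM was lower in every RC48 library (−0.49 and −0.44), and the groups overlapped for CDH1, KRT8, KRT18 and KRT19. Neither KRT7 nor EPCAM was called in edgeR with or without the correction. Among the luminal markers KRT20, a keratin of umbrella cells, fell (log2 fold change −1.55, SE 0.31, adjusted p = 0.0489, edgeR quasi-likelihood test over all genes), a call that was lost when any single Control library was left out (edgeR adjusted p from 0.215 to 0.232). FOXA1 and UPK1B were also lower in every RC48 library, as were 11.9% of all genes (log2 fold change −0.44 for each, edgeR adjusted p = 0.194 and 0.0951). With GC correction they read −0.65 and −0.38 (edgeR adjusted p = 0.0953 and 0.0493). UPK3A was higher in every RC48 library at few counts, and the groups overlapped for the other luminal markers.

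IL32 and IL23A stood higher in every RC48 library by a wide margin, EBI3, IL2RG and IL12RB1 stood higher at a few counts per library, IL4R stood slightly higher, and the groups overlapped for IL7, IL15 and IL15RA. The 6 genes with every RC48 library above every Control library compare with 15.5% of all genes that did the same, and no gene of the 9 had every RC48 library below. Since the genes were picked with these values in view, nothing is read from that count. In the fit across all genes 7 of the 9 could be tested, and 2 of them, IL32 and IL23A, were called higher at an adjusted p under 0.05, beside a background of 1.98% of 13055 genes called higher, 0.230% called lower and 2.21% in either direction. The same 2 were called after correction for GC content, where 4.12% of 13000 genes were called higher and 7.23% in either direction. Without the filter on low counts EBI3 was called too (edgeR adjusted p = 0.0428), where 1.52% of 16366 genes were called higher. EBI3 and IL2RG had too few counts to enter the fit, and IL32 and IL12RB1 entered it only through the RC48 libraries.

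**Figure D1:**
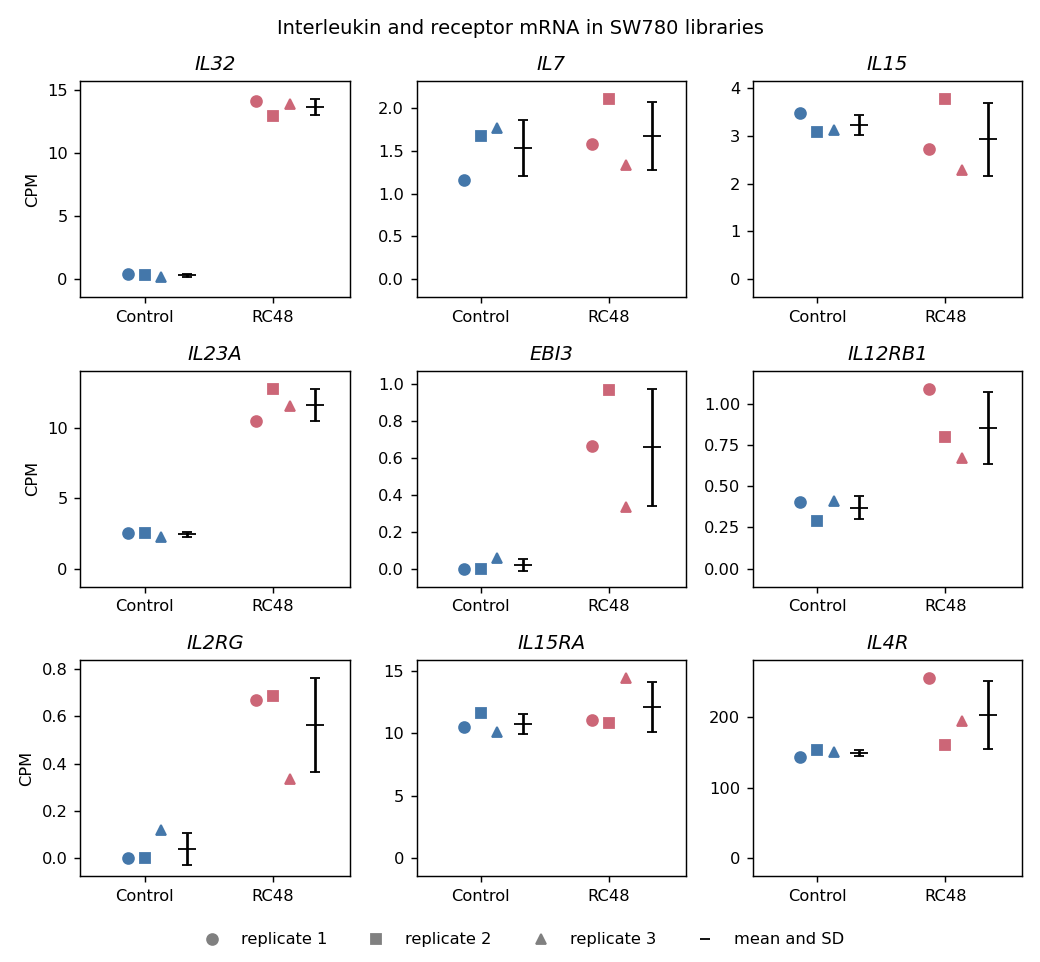
CPM (linear axis that includes 0, a scale of its own in each panel) of the 9 genes in the 3 Control (blue) and 3 RC48 (red) libraries, with the symbol giving the replicate number and the black bar the mean with its SD. IL32 and IL23A are far apart between groups, EBI3 and IL2RG are near 0 in Control, and IL7, IL15 and IL15RA overlap.

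IL32 was nearly silent in the Control libraries, where 7, 5 and 3 estimated counts (replicates 1 to 3) gave 0.405, 0.290 and 0.177 CPM. In the RC48 libraries 232, 226 and 250 counts gave 14.1, 12.9 and 13.9 CPM. The RC48 values lay within a narrow band, and the lowest of them was far above the highest Control value. The means were 0.290 ± 0.114 CPM and 13.6 ± 0.639 CPM (SD, n = 3 per group). RC48 was thus 45.8-fold higher, or 5.52 on the log2 scale (SE 0.25). By fold change IL32 ranked at place 8 among the 13055 genes tested. Correction for GC content left 5.26 (SE 0.24). The gene lies at chr16:3065403-3069530 (RefSeq, GRCh38.p14), and its promoter with the NF-κB match is the first of those printed above. The exact level in Control rests on 15 counts in all, so the size of the fold is less certain than its direction.

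The genes whose pattern over the 6 libraries was most like that of IL32 were LCN2, C3 and TNF, by the root mean square distance between mean-centred log2 CPM (0.14, 0.53 and 0.59). LCN2, which encodes the iron-siderophore binding protein lipocalin 2, went from 1.12 to 1.68 CPM in Control to 40.5 to 48.5 CPM in RC48. C3, the central complement component, went from 1.1 to 1.5 CPM to 20.1 to 32.7 CPM. TNF was at 0.00, 0.00 and 0.0589 CPM in Control and at 3.22, 2.91 and 2.12 CPM in RC48. Likeness here is only that of the 6 values.

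IL7 encodes a gamma-chain ligand that sustains lymphocytes and is made by stromal and epithelial cells. It stood at 1.16, 1.68 and 1.77 CPM in Control and at 1.58, 2.11 and 1.34 CPM in RC48. The groups overlapped, with a log2 fold change of 0.13 (SE 0.27), and of 0.46 (SE 0.27) after GC correction. Only 20 to 37 counts per library lay behind these values. The span of IL7, introns included, also overlaps that of ZC2HC1A in the RefSeq annotation. The strand setting of the counting is not given in the sources used here. Whether the transcripts share sequence, so that reads could be mixed, was not tested.

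IL15, the gamma-chain ligand of natural killer and memory T cells, had 3.47, 3.08 and 3.12 CPM in Control and 2.73, 3.77 and 2.28 CPM in RC48. RC48 replicate 2 was the highest of all 6 libraries, and the other two RC48 libraries were the lowest. The log2 fold change was −0.14 (SE 0.23) and turned to 0.23 (SE 0.22) after GC correction. The GC content of IL15 is 38.9%, the lowest of the 9, and its groups overlapped with and without the correction.

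IL23A encodes the p19 subunit that makes IL-23 when joined with the product of IL12B. It had 44, 44 and 38 estimated counts in Control, or 2.54, 2.55 and 2.24 CPM. In RC48 it had 173, 224 and 209 counts, or 10.5, 12.8 and 11.6 CPM. The groups were well apart, and the SDs were small beside the difference. The means were 2.44 ± 0.179 CPM in Control and 11.6 ± 1.14 CPM in RC48 (SD, n = 3 per group). This was 4.75-fold, or 2.25 on the log2 scale (SE 0.17), and placed IL23A at 58 among all genes tested. GC correction moved it little, to 2.16 (SE 0.15). IL23A lies at chr12:56338884-56340410.

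EBI3 encodes the subunit that IL-27 and IL-35 share. Its counts were 0, 0 and 1 in the Control libraries and 11, 17 and 6 in the RC48 libraries. All 3 RC48 libraries were above the highest Control library, but none exceeded 17 counts. Pooled over the group, RC48 was 33.7 times Control per library size, with a 95% exact interval from 5.66 to 1371 that covers counting error only. The gene lies at chr19:4229523-4237528. In bulk RNA such as this, a few cells with much EBI3 RNA and many cells with little cannot be told apart, and the same holds for every other gene here.

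IL12RB1 encodes the receptor chain that IL-12 and IL-23 both bind. It had 7, 5 and 7 counts in Control and 18, 14 and 12 counts in RC48. The groups did not overlap, at 0.290 to 0.412 CPM and 0.668 to 1.09 CPM. The log2 fold change was 1.19 (SE 0.34), and 0.89 (SE 0.32) after GC correction. IL12RB1 lies at chr19:18058995-18098927, and its span overlaps that of MAST3, a gene that is also in the count table. The strand setting is not known and shared transcript sequence was not tested, so the few counts of IL12RB1 carry that uncertainty.

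IL2RG, the common gamma chain, had 0, 0 and 2 counts in Control and 11, 12 and 6 counts in RC48. The lowest RC48 library was above the highest Control library, though none exceeded 12 counts. Pooled over the group the ratio was 14.4, with a 95% exact interval from 3.64 to 124.4 for counting error only. IL2RG lies at chrX:71107404-71111577, and its promoter window printed above held none of the 3 motifs.

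IL15RA encodes the chain that binds IL-15 and presents it to neighbouring cells. It stood at 10.5, 11.6 and 10.1 CPM in Control and at 11.1, 10.8 and 14.4 CPM in RC48. RC48 replicate 3 was the highest library, and the other two RC48 libraries lay among the Control values. The log2 fold change of 0.18 (SE 0.17) became −0.10 (SE 0.18) with GC correction. IL15RA lies at chr10:5948900-5978741. CD83, RIPK3 and S1PR2 were the genes most like it over the 6 libraries, at distances of 0.05, 0.06 and 0.07.

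IL4R encodes the alpha chain common to the IL-4 receptor and to the IL-13 receptor. It was the most abundant of the 9, at 144.0, 153.0 and 150.1 CPM in Control and at 254.7, 160.5 and 194.0 CPM in RC48. Every RC48 library was above every Control library, but RC48 replicate 2 only slightly so, and RC48 replicate 1 stood far above the other two. The log2 fold change was 0.45 (SE 0.17) with all libraries and 0.24 without RC48 replicate 1. After GC correction the libraries read 157.3, 166.3 and 169.5 CPM in Control and 188.8, 171.9 and 182.9 CPM in RC48, still apart by a narrow gap, with a log2 fold change of 0.14 (SE 0.08). The size of the IL4R difference thus depended on the correction, whereas those of IL32 and IL23A changed little. IL4R lies at chr16:27313756-27364778 and has a GC content of 58.7%. RGL2, VASH1 and BCR were most like it, at distances of 0.02, 0.03 and 0.03, and each likewise had its highest value in RC48 replicate 1.

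**Figure D2:**
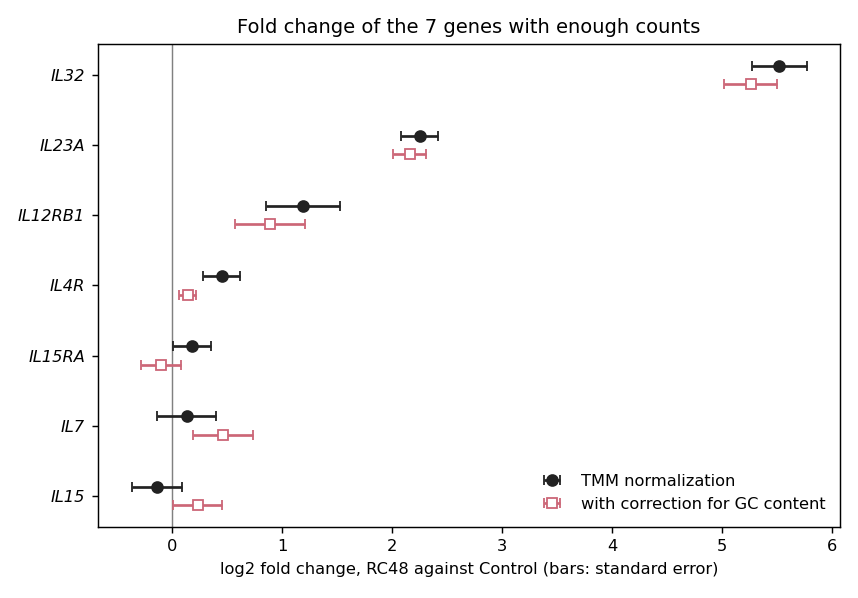
Log2 fold change of RC48 against Control (points, bars are the standard error) for the 7 genes with enough counts, from the fit with TMM normalization (black) and from the fit with correction for GC content (red, open). IL32 (5.52 and 5.26) and IL23A (2.25 and 2.16) keep their size, IL4R shrinks from 0.45 to 0.14, and IL15RA and IL15 change sign.

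Levels of different genes were compared on the deposited TPM scale, which divides by transcript length and was used for 5 libraries (the TPM of RC48 replicate 2 were not used here). In Control the order was IL4R (80.3 ± 5.29 TPM, SD, n = 3), IL15RA (14.4 ± 0.565), IL23A (5.94 ± 0.108), IL15 (3.20 ± 0.173), IL7 (1.63 ± 0.419), IL32 (0.597 ± 0.198), IL12RB1 (0.360 ± 0.0458), IL2RG (0.0600 ± 0.104) and EBI3 (0.0433 ± 0.0751). Neighbours in this order did not overlap across the Control libraries down to IL12RB1, although IL32 and IL12RB1 nearly touched (lowest 0.42 and highest 0.40 TPM), and IL2RG and EBI3 overlapped. In RC48 replicates 1 and 3, IL4R remained first at 122.4 and 99.0 TPM. IL32 followed at 23.0 and 25.6 TPM beside IL23A at 20.4 and 26.2 TPM, so that both stood above IL15RA at 12.6 and 18.2 TPM. IL32 and IL23A could not be ordered against each other.

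The partner chains of these genes were mostly scarce. IL2RB, the beta chain of the IL-15 receptor, had 4, 3 and 2 counts in Control and 2, 0 and 1 in RC48. IL12A, the subunit that completes IL-12 and IL-35, had 5, 4 and 2 counts and 3, 6 and 5 counts, and IL12RB2, the second chain of the IL-12 receptor, had 1 to 4 counts and 1 to 6 counts. IL13RA1, which pairs with IL4R, was abundant at 42.0, 40.3 and 49.6 TPM in Control and at 25.9 and 41.5 TPM in RC48. IL12B, IL27, IL23R, IL2RA, IL2, IL4, IL9, IL21 and CRLF2 were not analysed here, so no complete IL-23 ligand or receptor pair was measured.

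**Figure D3:**
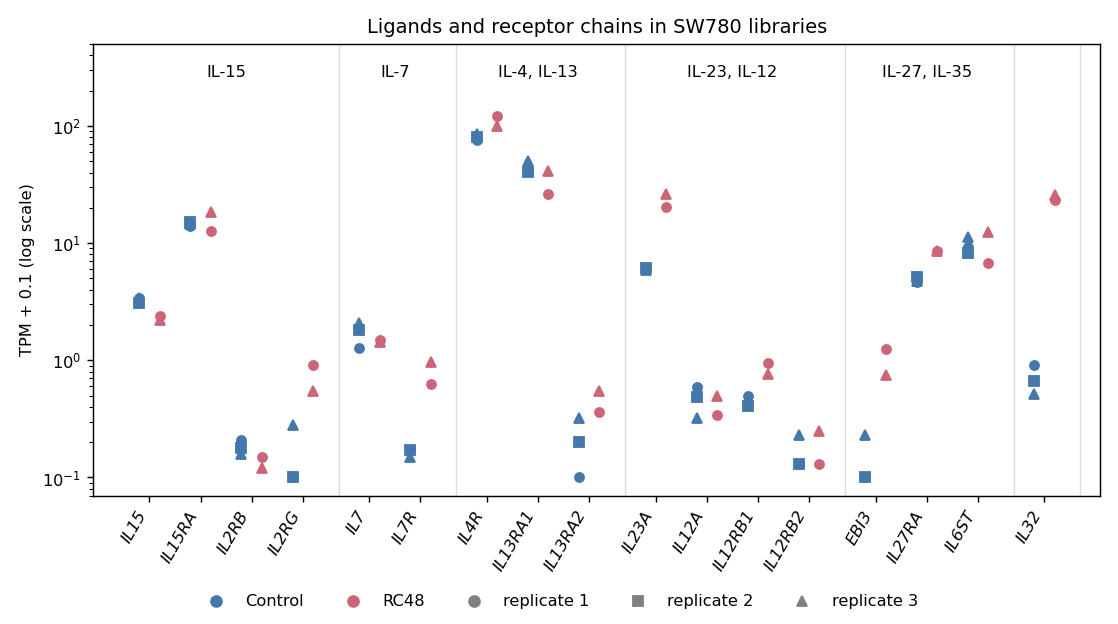
TPM plus 0.1 (log axis) of ligands and receptor chains in the 3 Control libraries (blue) and RC48 replicates 1 and 3 (red), grouped by cytokine. IL2RG also serves the IL-7 and IL-4 receptors and is drawn once. IL4R, IL13RA1 and IL15RA are the high chains in both groups, while IL2RB and IL12RB2 stay at or below 0.150 TPM.

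The rest of the pathway was read from lists of other interleukins, their receptors, JAK and STAT proteins and STAT target genes. Of 77 such genes 55 were in the count table, 37 could be tested, 5 rose and 0 fell (edgeR adjusted p under 0.05), against the background of 1.98% called higher, and 32 did not pass. Among the 37, 14 were higher and 2 lower at an unadjusted p under 0.05 in edgeR, where 11.9% and 7.21% of all genes were. DESeq2 called 8 of them higher and 1 lower, beside 4.11% and 1.59% of all genes. The median log2 fold change of the 37 was 0.32, and that of all genes tested was 0.02. With GC correction in edgeR 8 were higher and 1, the transcription factor gene MYC, was lower (log2 fold change −0.79, edgeR adjusted p = 0.00564, against −0.52 and 0.0655 without the correction), beside 4.12% of all genes called higher in that fit.

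Among receptors IL7R, which joins IL2RG to form the IL-7 receptor, rose from 3, 3 and 2 counts to 24, 30 and 40 counts (log2 fold change 3.48, SE 0.35, edgeR adjusted p = 0.0027, and 3.70 with GC correction). Its groups were far apart, though at low counts, and IL7R entered the fit only through the RC48 libraries. Its ligand IL7 overlapped between groups. IL27RA, which binds EBI3-containing IL-27, rose by 0.89 on the log2 scale (edgeR adjusted p = 0.0298) and by 0.62 with GC correction (edgeR adjusted p = 0.0219), with means of 7.16 ± 0.657 CPM in Control and 13.3 ± 1.15 CPM in RC48 (SD, n = 3 per group). IL6ST, its signalling partner, had a log2 fold change of 0.44 (edgeR adjusted p = 0.369) and of 0.73 after GC correction (edgeR adjusted p = 0.0121). IL13RA1 had a log2 fold change of −0.12 (edgeR adjusted p = 0.702) and of 0.13 after GC correction. In all, 2 of the 16 other interleukin and receptor genes tested rose, both of them receptors. None of the 4 tested IL-10 family genes and none of the 6 tested IL-17 family genes passed in edgeR or DESeq2, and 1 of the former and 0 of the latter had an unadjusted p under 0.05. The most abundant were IL10RB at −0.10 and IL17RA at 0.13 (log2 fold change), which turned to 0.03 and −0.13 with GC correction. IL16, a cytokine outside both families, had a log2 fold change of 0.99 (edgeR adjusted p = 0.0906) and of 0.78 after GC correction (edgeR adjusted p = 0.0391).

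Downstream, STAT2 (log2 fold change 0.70, edgeR adjusted p = 0.0346) and STAT3 (0.61, edgeR adjusted p = 0.044) rose among the 11 JAK and STAT genes, and read 0.57 and 0.55 with GC correction (edgeR adjusted p = 0.00917 and 0.0109). The call of STAT3 was lost without the filter on low counts (edgeR adjusted p = 0.0562), in limma on TPM (adjusted p from 0.0511 to 0.0895) and with the replicate block (edgeR adjusted p = 0.0886), which also took that of STAT2 (0.0572). STAT3 passes on IL-23 and IL-27 signals, and STAT2 acts mainly below interferon receptors. STAT6, the factor below IL4R, had 0.44 (edgeR adjusted p = 0.254) and 0.17 with GC correction. STAT5A, a factor below gamma-chain receptors, had 0.96 (edgeR adjusted p = 0.0696) and 0.63 with GC correction (edgeR adjusted p = 0.00667). SOCS3, a feedback inhibitor and target of STAT3, rose by 0.89 (edgeR adjusted p = 0.0255), and read 0.60 with GC correction (edgeR adjusted p = 0.0532). Without the correction it was the only one of 10 tested STAT target genes to pass in edgeR. At an unadjusted p under 0.05 in edgeR, 5 of them were higher and 1 was lower. DESeq2 called IRF1 higher and MYC lower besides SOCS3. PIM1, the most abundant of the 10, had a log2 fold change of 0.06, and of −0.17 with GC correction. The calls of IL27RA, STAT2, STAT3 and SOCS3 were less stable than that of IL7R. Leaving out any single Control library, or RC48 replicate 3, left IL7R as the only one of the 5.

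**Figure D4:**
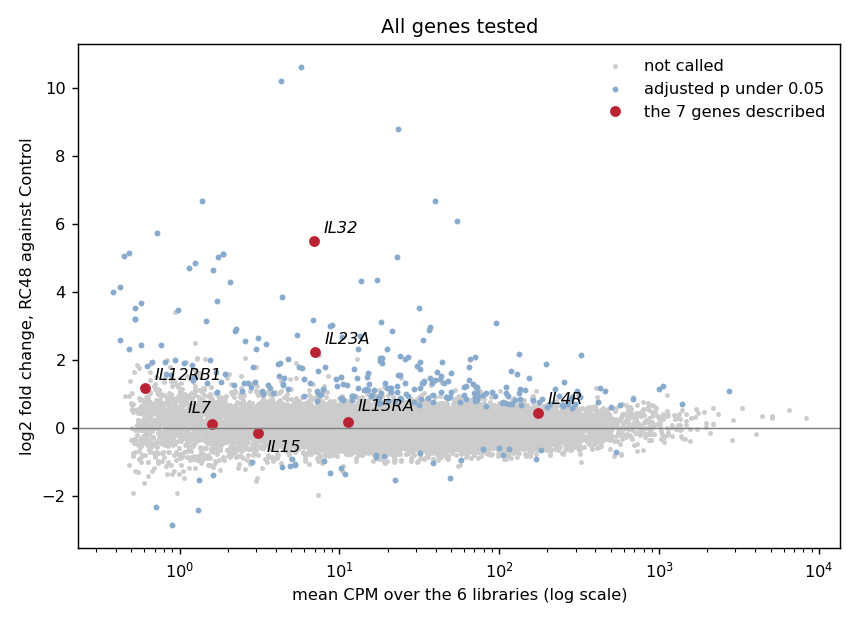
Log2 fold change of RC48 against Control against the mean CPM over the 6 libraries (log axis) for the 13055 genes tested, with genes at an adjusted p under 0.05 in blue and the 7 tested interleukin and receptor genes in red. IL32 and IL23A lie above the bulk of the genes, and IL7, IL15, IL15RA and IL4R lie within it.

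Several of these genes are best known from leukocytes, so leukocyte markers were counted in the same libraries. Of 18 markers 13 were in the table, and they summed to 21.3 to 23.6 CPM in Control and 31.4 to 52.8 CPM in RC48. Most of that sum came from CORO1A (15.4 ± 0.970 CPM in Control and 24.2 ± 9.65 CPM in RC48, SD, n = 3 per group) and LAPTM5 (5.24 ± 0.453 and 7.13 ± 0.863 CPM). Both had every RC48 library above every Control library, as did 15.5% of all genes, with log2 fold changes of 0.65 and 0.44 (edgeR adjusted p = 0.247 and 0.231). CORO1A stood at 35.3 CPM in RC48 replicate 1 and at 18.2 and 19.0 CPM in RC48 replicates 2 and 3. With GC correction CORO1A and LAPTM5 read 0.28 and 0.23, and the groups overlapped for both. The T cell marker CD3E was also higher in every RC48 library, at 5, 4 and 7 counts in Control and 23, 11 and 17 in RC48 (log2 fold change 1.64, edgeR adjusted p = 0.113). So was the monocyte marker CD14, at 6, 8 and 4 counts and 23, 14 and 12 (1.42, edgeR adjusted p = 0.161). With GC correction CD3E and CD14 read 1.65 and 1.18, and their groups stayed apart. For CD3D, LYZ, CD79A, FCER1G and NKG7 the groups overlapped. CD3D had 12, 9 and 11 counts in Control and 16, 12 and 10 in RC48 (log2 fold change 0.24). The pan-leukocyte marker PTPRC (CD45) had 0 counts in all Control libraries and 1, 1 and 0 in RC48, CD3G had 0 in Control and 0, 3 and 0 in RC48, and CSF1R had 0 in Control and 1, 1 and 2 in RC48. ITGAM, an integrin chain of myeloid cells, was the only marker called, at 0, 5 and 0 counts in Control and 69, 54 and 65 in RC48 (log2 fold change 5.12, edgeR adjusted p = 0.0074). ITGAM entered the fit only through the RC48 libraries, as did CD3E and CD14. The call of ITGAM was lost without Control replicate 3 (edgeR adjusted p = 0.0718). Without Control replicate 2, the only Control library with an ITGAM count, the fitted log2 fold change was 8.97, a value that depends on the prior count. The part of these markers in the values of EBI3, IL2RG, IL12RB1 and IL32 was not tested.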

How the data were processed

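RNA from 3 Control and 3 RC48 libraries of SW780 cells was sequenced at BGI. The authors cleaned reads (SOAPnuke), aligned them to gene sequences (Bowtie2) and estimated expression (RSEM); hg38 comes from the submitters' processing notes, and versions and annotation are not given in the sources used here. Of the deposited values, RSEM's estimated counts per gene of 6 libraries and the TPM of 5 were used. Counts were rounded and tested with edgeR 4.0.16 (filterByExpr, TMM, quasi-likelihood test, Benjamini-Hochberg adjustment over all genes tested, threshold 0.05) in R 4.3.3. Alternatives were RLE size factors, no filter, DESeq2 1.42.0, limma 3.58.1 on log2(TPM+1) or log2(TPM+0.1), a loess correction for transcript GC content (16289 genes had one), the replicate number as a block, and leaving out each library. Intervals and floors cover counting error only. Scripts were tested on simulated data. Members and gene lists were chosen with earlier results of these data known. All 9 members are named; of other lists, the genes called, of pathway lists also the most abundant gene not called, and genes that edgeR called with GC correction but not without it, of which 1 is not reported here; partner chains were named after their values were seen.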

Additional observations from a re-analysis of the deposited data

How the results depend on the processing

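IL32 and IL23A were called higher under each of the 15 alternatives, with log2 fold changes from 3.99 to 5.82 and from 1.80 to 2.31. These fits reuse the same libraries and genes chosen with their values known. They show dependence on the processing only and are no further test. IL32 entered the filtered fits only through the RC48 libraries. EBI3 was called as well without the filter on low counts (edgeR adjusted p = 0.0428) and in limma on unfiltered TPM (adjusted p = 0.0419). EBI3 also entered the fits without Control replicate 1, 2 or 3 and without RC48 replicate 3. It was not called in those (edgeR adjusted p = 0.2, 0.2, 0.218 and 0.0593). IL4R was called in limma on log2(TPM+1) and without RC48 replicate 2. In every setting 2 or 3 of the 9 genes were called. The IL4R settings both lacked RC48 replicate 2, the RC48 library at a rho of −0.01 with GC content. They called 2836 and 3726 of all genes. With GC correction the edgeR adjusted p of IL4R was 0.301, and 0.491 with the replicate block as well. The number of genes called among all genes, 288, moved to 744 with DESeq2, 2836 with limma on log2(TPM+1), 2626 with limma on log2(TPM+0.1), 940 with GC correction and 700 with GC correction and the replicate block, and ranged from 68 (without Control replicate 3) to 3726 (without RC48 replicate 2) when single libraries were left out. The number of other pathway genes called, 5, moved to 9 with DESeq2, 8 with limma on log2(TPM+1), 2 with limma on unfiltered TPM, 9 with GC correction and 10 with GC correction and the replicate block, and ranged from 1 to 15 when single libraries were left out. Signs turned for IL15 with GC correction (0.23, and 0.24 with the block), IL15RA (−0.10 and −0.12), IL13RA1 (0.13 and 0.13), IL10RB (0.03 and 0.03), IL17RA (−0.13 and −0.13) and PIM1 (−0.17 and −0.17), for IL7 with limma on TPM (−0.14, −0.20 and −0.14), IL6ST (−0.04, −0.05 and −0.04) and PIM1 (−0.02 in each of the 3 fits), and when single libraries were left out for IL7 (from −0.08 to 0.25), IL13RA1 (from −0.27 to 0.07), IL17RA (from −0.02 to 0.25) and PIM1 (from −0.06 to 0.12); the cause was not tested. Control and RC48 libraries share replicate numbers, but the deviations of same-numbered libraries correlated at 0.00204, −0.132 and 0.00478. Those of differently numbered libraries correlated at −0.112 to 0.131. These values gave no sign of pairing by number, but with 3 libraries per group they cannot exclude it. With the replicate block 331 genes were called, 2 of the 9 and 4 of the other pathway genes, where STAT2 and STAT3 were lost and STAT5A was gained (edgeR adjusted p = 0.0308). Counts of 0 to 2 in Control limit EBI3 and IL2RG.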
